A study of Mus musculus with 8 samples.

Results

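Lyz1, Defa24 and Mptx2 were the 3 genes with that name among 309 genes in the day 0 table of colonic intestinal epithelial cells (IECs), and Defa24 was also 1 of 128 genes in the day 7 table. They were taken by gene name, as genes known as products of Paneth cells. Both tables list only genes that differed between the genotypes by the study's thresholds, so the difference between genotypes is what brought these genes here and is given below as a description, without a test.

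Paneth cells lie at the base of small intestinal crypts and release granules that hold antimicrobial proteins, among them lysozyme and alpha-defensins. They are scarce in the normal mouse colon. Lyz1 encodes the lysozyme of Paneth cells, an enzyme that cuts bacterial peptidoglycan, whereas its neighbour Lyz2 is the lysozyme gene of macrophages and other myeloid cells. Defa24 encodes an alpha-defensin, a small cationic peptide that permeabilises bacterial membranes. Mptx2 encodes a mucosal pentraxin, a secreted protein of the pentraxin family.

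RNA was sequenced from IECs of Efhd2f/f Vil1cre/+ mice, in which Cre expressed from the Vil1 (villin) promoter deletes the floxed exon of Efhd2 in the intestinal epithelium, and of Efhd2f/f mice, whose 2 floxed alleles stay intact without Cre. Mice were young adults of both sexes. Each genotype was taken on day 0 without dextran sodium sulfate (DSS) and on day 7 after DSS, which injures the colonic epithelium when given in drinking water, giving 4 groups of 2 libraries each. The dose for these libraries and whether a library came from 1 mouse or a pool are not given in the sources used here. IECs were shaken off the opened colon with EDTA and strained, with no sort for a cell type described, so the fraction could hold other cells. The libraries are named by the numbers in the column names: 51 and 53 (Efhd2f/f Vil1cre/+) and 50 and 52 (Efhd2f/f) on day 0, and 65 and 71 (Efhd2f/f Vil1cre/+) and 67 and 68 (Efhd2f/f) on day 7. The targeted gene Efhd2 stood at 556 and 713 normalized counts in libraries 51 and 53 and at 2663 and 2686 in libraries 50 and 52. The day 7 table does not list Efhd2, which leaves its genotype labels without this check. None of 6 epithelial markers searched (Epcam, Cdh1, Krt8, Krt18, Krt20 and Vil1) is among the listed genes of either day, so the identity of the cells was not checked either.

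The 3 genes lie on different chromosomes (GRCm38). Lyz1 (ENSMUSG00000069515) is on the minus strand of chromosome 10 from 117287797 to 117292868 and has 4 exons. Lyz2 lies beside it, separated by 5475 bases. Defa24 (ENSMUSG00000064213) is on the plus strand of chromosome 8 from 21734494 to 21735471 and has 2 exons, and the annotation holds 39 genes whose symbol starts with Defa. Mptx2 (ENSMUSG00000079180) is on the minus strand of chromosome 1 from 173274382 to 173277777, has 2 exons, and lies 1052740 bases from its relative Mptx1.

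Each gene has a near copy, and the start regions of Lyz1 and Mptx2 are shown with those of their relatives because in both pairs only 1 of the 2 genes is listed. RefSeq promoter sequences (GRCm38.p6) were matched for these 4 genes and not for Defa24. Capitals mark bases that differ from, or have no partner in, the relative. All are written 5′ to 3′ on the gene's strand, and each stretch ends 50 bases before the RefSeq start, or 30 bases before it for Mptx1, whose stretch is the one that aligned with Mptx2. The GENCODE starts, which the coordinates given above follow, lie closer for Mptx2 (29 bases from the stretch) and Lyz2 (1 base).
Lyz1 (chr10:117292919-117293038, minus strand): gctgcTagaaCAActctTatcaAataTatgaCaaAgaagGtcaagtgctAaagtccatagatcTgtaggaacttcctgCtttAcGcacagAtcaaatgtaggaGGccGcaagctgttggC
Lyz2 (chr10:117282323-117282443, minus strand): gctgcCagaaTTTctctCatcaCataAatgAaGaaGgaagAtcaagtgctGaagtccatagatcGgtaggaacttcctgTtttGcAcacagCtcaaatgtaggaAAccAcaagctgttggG
Mptx2 (chr1:173277807-173277926, minus strand): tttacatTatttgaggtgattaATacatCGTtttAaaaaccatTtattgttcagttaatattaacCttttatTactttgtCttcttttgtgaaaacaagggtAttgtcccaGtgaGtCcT
Mptx1 (chr1:174330369-174330487, plus strand): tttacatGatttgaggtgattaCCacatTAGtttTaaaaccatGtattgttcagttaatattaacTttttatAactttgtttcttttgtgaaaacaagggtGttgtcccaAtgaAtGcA

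Over the whole 300-base promoter, from 250 bases before to 50 after the start, Lyz1 and Lyz2 shared 83.6% of aligned bases and Mptx2 and Mptx1 88.8%. The motif TATAAA (plus strand) was in none of the 4 promoters and in 8.32% of all promoters of that length. CTTTGA (either strand) was in that of Mptx1, not in those of Lyz1, Lyz2 or Mptx2, and in 16.0% of all promoters.

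The transcripts were closer still. The annotated Lyz1 transcript (1263 bases) was identical to that of Lyz2 at 96.0% of aligned bases, and the Mptx2 transcript (794 bases) to that of Mptx1 at 92.4%. The Defa24 transcript (419 bases) was identical to that of Defa30 at 98.2%, its closest relative among 16 that aligned over at least 90% of its length, and the median over those 16 was 83.8%. Of all 50-base windows, 28.1% of those in Defa24, 18.0% of those in Mptx2 and 16.1% of those in Lyz1 occurred word for word in a transcript of another gene. For Lyz1 that gene was Lyz2, for Mptx2 it was Mptx1, and for Defa24 there were 9 others, all alpha-defensin genes. At 100 bases, the shared part was 0% for Defa24, 3.31% for Mptx2 and 2.06% for Lyz1. How the authors' counting treated reads that match several genes is not given in the sources used here, so the levels of all 3 genes are uncertain to that extent. Defa24 had the highest shared part at 25 and 50 bases.

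**Figure D1:**
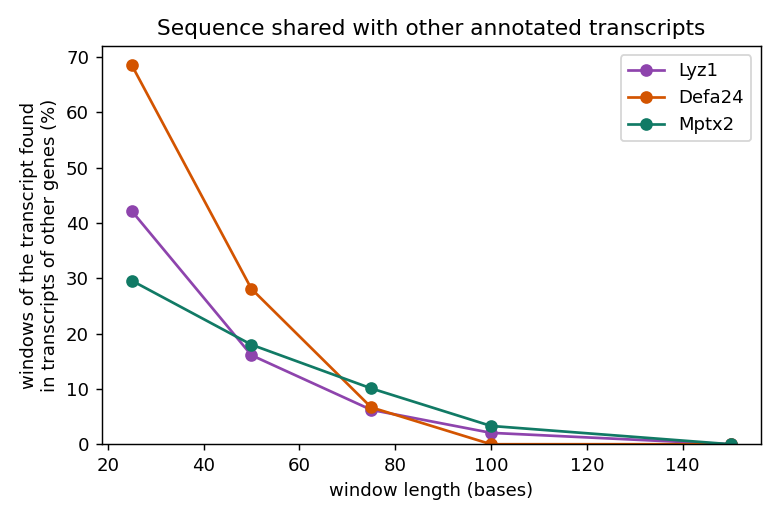
Share of windows of the Lyz1, Defa24 and Mptx2 transcripts (vertical axis, percent) that occur word for word in an annotated transcript of another gene, against the window length in bases (horizontal axis). Defa24 has the highest share at 25 bases (68.6%), and none of the 3 shares a window of 150 bases.

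On day 0 the 3 genes did not move as a group: Mptx2 was higher in Efhd2f/f Vil1cre/+ IECs, Lyz1 was lower, and Defa24 was listed above 0 in 1 library, of Efhd2f/f. All 3 differences leaned on a single library. Since the libraries are bulk RNA, fewer cells of a type and less RNA per cell cannot be told apart. The labels do not say that libraries of a group came from separate mice, so the spread between them may be technical.

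Lyz1, the lysozyme gene, was at 6.07 and 2.73 normalized counts in Efhd2f/f Vil1cre/+ libraries 51 and 53, and at 12.6 and 54.8 in Efhd2f/f libraries 50 and 52. Both libraries of one genotype lay below both of the other, as they did for 67% of the genes listed on day 0, a share fixed by how the table was made. The means ± s.d. were 4.40 ± 2.37 and 33.7 ± 29.8 normalized counts (n = 2 each), a ratio of 7.67 between Efhd2f/f and Efhd2f/f Vil1cre/+ IECs. On the log2(normalized count + 1) scale the difference was -2.43 (Efhd2f/f Vil1cre/+ minus Efhd2f/f), with a standard error of 1.12 from the spread of Lyz1 itself and of 0.67 after limma moved it toward the spread of the other listed genes, which were selected. Without library 52 the difference was -1.41. Library 52 held 4.34 times as much Lyz1 as library 50, the other library of its genotype. The gap between these 2 libraries, 2.03 on the log2 scale, was the 13th largest of 309 genes, against a median gap of 0.53.

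Defa24, the alpha-defensin gene, was listed at 0 in libraries 51, 53 and 50, and at 86.9 normalized counts in library 52. The genotypes overlapped, because Efhd2f/f library 50 was at 0 as were both Efhd2f/f Vil1cre/+ libraries. Without library 52 no Defa24 value above 0 remained on day 0. No fold is given against libraries listed at 0, and the gap between the 2 Efhd2f/f libraries was the 2nd largest of all 309 genes. Of the 39 annotated Defa genes, Defa24 was the only one listed on day 0. The levels of the others were not analysed here.

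Mptx2, the pentraxin gene, was at 4653 and 1117 normalized counts in Efhd2f/f Vil1cre/+ libraries 51 and 53, and at 711 and 870 in Efhd2f/f libraries 50 and 52. Both libraries of Efhd2f/f Vil1cre/+ lay above both of Efhd2f/f, as they did for 32% of the genes listed on day 0. The same share had a higher mean in Efhd2f/f Vil1cre/+ IECs, so this separation too is fixed by how the table was made. The means ± s.d. were 2885 ± 2500 and 791 ± 112 (n = 2 each), a ratio of 3.65. The log2 difference was 1.53, with a standard error of 1.04 from its own spread and of 0.64 from limma. Without library 51 the difference was 0.50, while without library 53 it was 2.56. Library 51 held 4.17 times as much Mptx2 as library 53, and this gap, 2.06 on the log2 scale, was the 7th largest of 309 among the Efhd2f/f Vil1cre/+ libraries (median 0.32). The Efhd2f/f libraries differed by a factor of 1.22. When every library was brought to one common total of the listed genes, the log2 difference of Mptx2 was 0.92. These totals were 257002 and 205066 in libraries 51 and 53 and 150452 and 149389 in libraries 50 and 52. They hold the genotype differences on which the genes were selected, so this setting also shifts those differences.

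**Figure D2:**
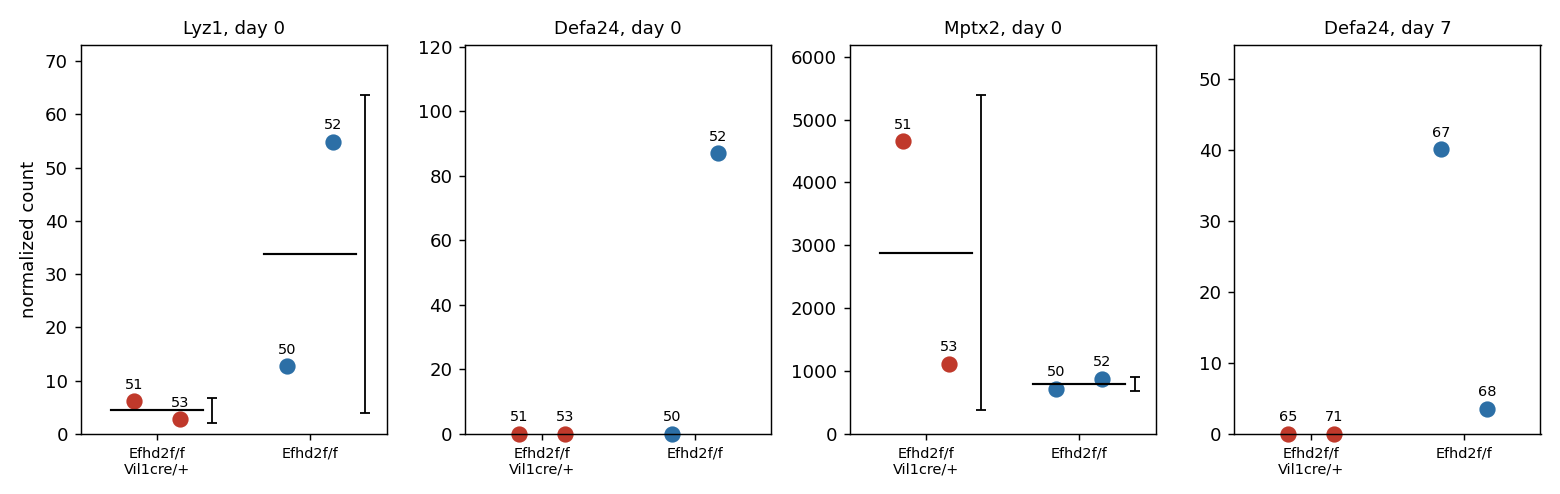
Normalized counts of Lyz1, Defa24 and Mptx2 on day 0 and of Defa24 on day 7 (vertical axis of each panel, from 0), by genotype. Points are libraries with their numbers, horizontal lines are means and bars s.d. (n = 2), which are left out for Defa24 because 2 or 3 of its libraries are listed at 0; library 52 is the highest for Lyz1 and Defa24 (54.8 and 86.9), and library 51 for Mptx2 (4653).

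On day 0, a single library held more than 3 times the level of every other library for 17 of the 309 listed genes (5.5%), a threshold chosen after seeing the data. Library 52 did so for 2 of 309 genes, which were Lyz1 and Defa24, and library 51 for 4, one of them Mptx2. The counts were 1 for library 53 and 10 for library 50, none of these genes among the 3. On day 7 this held for 31 of 128 listed genes (24.2%), of which library 71 had 21 and library 67 had 2, one of them Defa24.

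**Figure D3:**
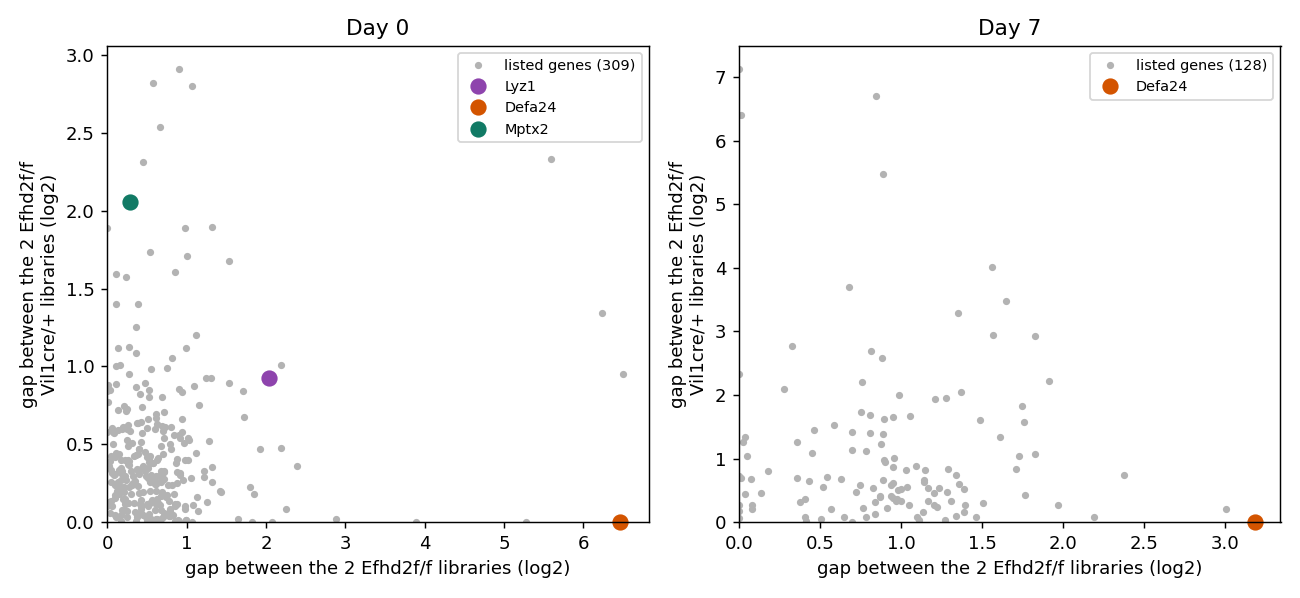
Gap between the 2 Efhd2f/f libraries (horizontal axis) and between the 2 Efhd2f/f Vil1cre/+ libraries (vertical axis) for every listed gene, both on the log2(normalized count + 1) scale, by day. Lyz1 (2.03) and Defa24 (6.46 on day 0 and 3.18 on day 7) lie far to the right, and Mptx2 (2.06) lies high, while most genes listed on day 0 cluster near the origin.

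Compared per length of transcript, Mptx2 was the most abundant of the 3 in every day 0 library, with 896 to 5860 normalized counts per kilobase. It ranked 7th of 309 listed genes by its mean over the 4 libraries. Lyz1, at 2.16 to 43.4 per kilobase, ranked 213th. Defa24 reached 207 per kilobase in library 52 and passed Lyz1 there, which was at 43.4. The ratio of Mptx2 to Lyz1 per kilobase was 1219 and 652 in libraries 51 and 53 and 89.5 and 25.3 in libraries 50 and 52. The genotypes did not overlap in this ratio, whose parts were chosen on this same contrast.

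**Figure D4:**
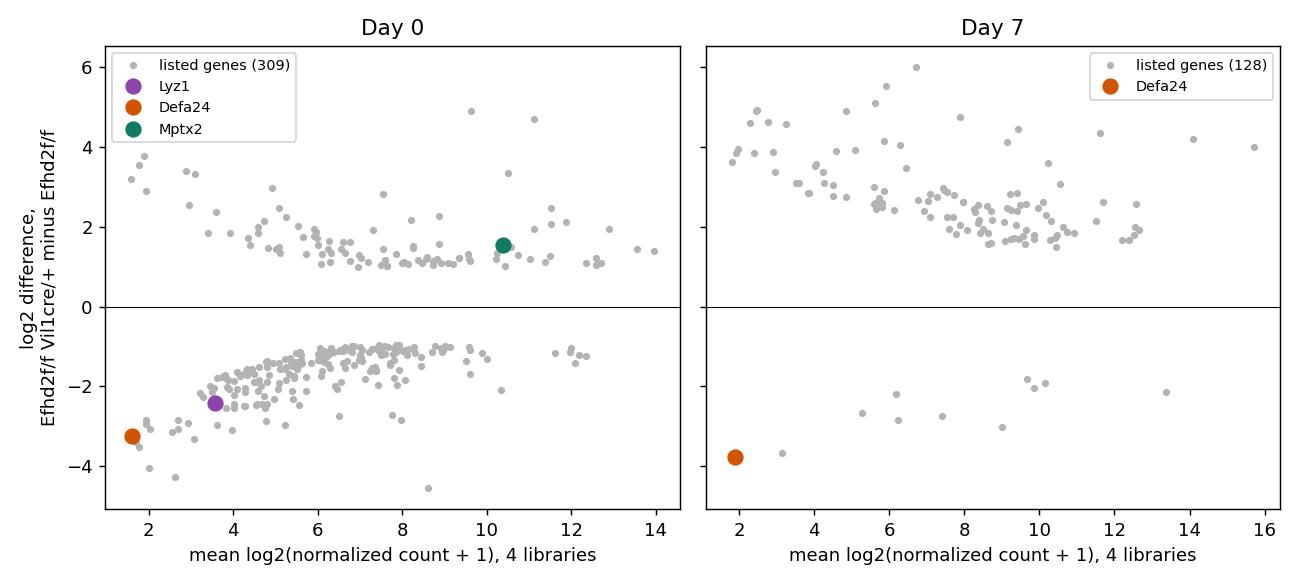
Log2 difference between Efhd2f/f Vil1cre/+ and Efhd2f/f (vertical axis, log2(normalized count + 1) scale) against the mean level over 4 libraries (horizontal axis) for all listed genes of day 0 (309) and day 7 (128). Mptx2 lies at 1.53 among abundant genes, Lyz1 at -2.43 and Defa24 at the low end of the levels on both days, and the empty band around 0 comes from the study's thresholds.

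The genes whose profiles lay closest to each of the 3 were found by the Euclidean distance between log2(normalized count + 1) values over the 4 libraries, each profile centred on its own mean. Their likeness to the gene they were picked for follows from this choice and is no further result. For Lyz1 the nearest on day 0 were Anpep, a brush border aminopeptidase (distance 0.95), Apoa1, an apolipoprotein of lipid transport (1.05), and Rn7sk, a small nuclear RNA (1.10). Anpep was at 39.5 and 29.6 normalized counts in libraries 51 and 53 and at 172 and 318 in libraries 50 and 52. Apoa1 was at 8.11 and 6.46 against 35.2 and 57.3. These genes, like Lyz1, had their highest value in library 52.

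For Mptx2 the nearest was mt-Co2, a subunit of cytochrome c oxidase encoded in mitochondrial DNA, at a distance of 0.23. It was at 44079 and 8862 normalized counts in libraries 51 and 53 and at 6197 and 8459 in libraries 50 and 52, so that library 51 stood apart for both genes. The ratio of mt-Co2 to Mptx2 per kilobase was between 9.21 and 11.3 in all 4 libraries. Since mt-Co2 was picked as the closest listed profile, a nearly constant ratio follows from that choice. Rpl15-ps3, a processed pseudogene of a ribosomal protein (0.60), and Foxa2, a transcription factor of the endoderm (0.85), followed. Foxa2 was at 227 and 113 normalized counts in libraries 51 and 53 against 69.6 and 74.9.

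For Defa24 on day 0 the nearest profile was that of Lyz1, but at a distance of 3.30, followed by 9130221F21Rik (3.93) and Anpep (3.99). With 3 of 4 values at 0, no listed gene came close to its profile. Within 1 Mb of the 3 genes, a single listed gene was found, Ifi206, an interferon-inducible gene 190708 bases from Mptx2. Its values ran opposite to those of Mptx2, at 4.08 and 15.9 normalized counts in libraries 51 and 53 and 48.1 and 32.7 in libraries 50 and 52. A lower mean in Efhd2f/f Vil1cre/+ IECs was the usual case, held by 68% of the genes listed on day 0.

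**Figure D5:**
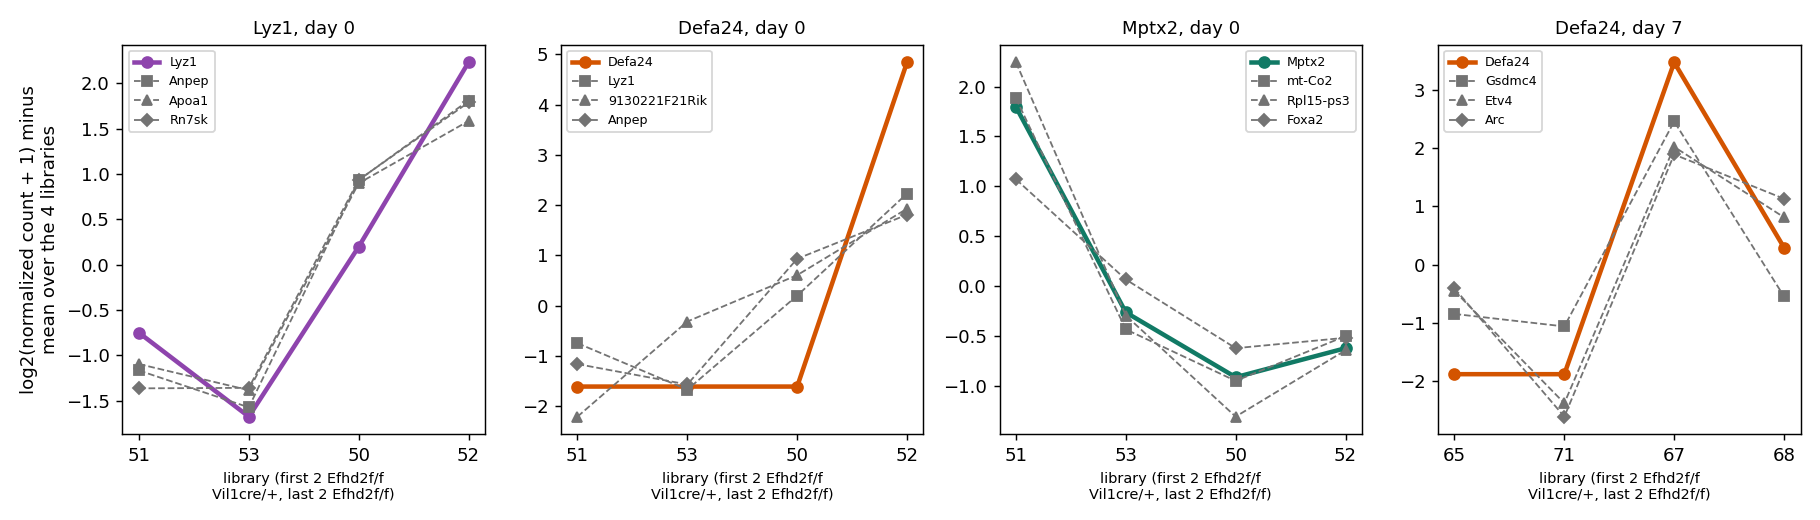
Profiles of Lyz1, Defa24 and Mptx2 on day 0 and of Defa24 on day 7 (coloured) with the 3 listed genes nearest to each (grey), as log2(normalized count + 1) minus the mean over the 4 libraries (vertical axis); the horizontal axis gives the library numbers, and lines only join the points of a gene. The profile of mt-Co2 runs along that of Mptx2 (distance 0.23), whereas the nearest to Defa24 on day 0 is 3.30 away.

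On day 7, after DSS, Defa24 was listed at 0 in both Efhd2f/f Vil1cre/+ libraries (65 and 71) and at 40.1 and 3.52 normalized counts in Efhd2f/f libraries 67 and 68. Both Efhd2f/f libraries were above both Efhd2f/f Vil1cre/+ libraries, as they were for 8.59% of the genes listed on day 7. The same share had a lower mean in Efhd2f/f Vil1cre/+ IECs, so this separation is fixed by how the table was made. Library 67 held 11.4 times as much as library 68, and the gap between the pair, 3.18 on the log2 scale, was the largest of the 128 listed genes (median 0.92). Per kilobase, Defa24 was at 95.7 in library 67 and 8.40 in library 68. The nearest profiles were those of Gsdmc4, a gasdermin C gene (1.87), Etv4, an ETS transcription factor (2.16), and Arc, an immediate early gene (2.43). Gsdmc4 was at 6256 normalized counts in library 67 and 777 in library 68, against 631 and 543 in libraries 65 and 71. Library 67 stood out for it as for Defa24, a likeness for which it was picked.

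Defa24 was 1 of 9 genes listed on both days. The tables were normalized separately and come from different libraries, so the days are set side by side only: all 4 Efhd2f/f Vil1cre/+ libraries were listed at 0, and of the 4 Efhd2f/f libraries 1 was at 0, 1 at 3.52, 1 at 40.1 and 1 at 86.9. Lyz1 and Mptx2 are not listed on day 7, and their levels in those libraries were not analysed here.

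A list of Paneth cell genes, which takes in all Defa genes, the matrilysin gene Mmp7 that activates alpha-defensins, Ang4, Itln1, Pla2g2a and the Reg3 lectins, matched 60 genes of the annotation. On day 0, 3 of them were listed, the 3 described above, 1 with a higher and 2 with a lower mean in Efhd2f/f Vil1cre/+ IECs. The median log2 difference of these 3 is the value of Lyz1 itself, -2.43 (-1.17 over all listed genes). It adds nothing to the values given above. On day 7, 4 were listed. Besides Defa24 these were Reg3g, Reg3b and Reg3a, antimicrobial lectins that other epithelial cells also make, with log2 differences of 4.21, 3.99 and 4.06, opposite in sign to that of Defa24 (median over all genes listed on day 7, 2.53). Over all listed genes, 32% had a higher and 68% a lower mean in Efhd2f/f Vil1cre/+ IECs on day 0. On day 7, 91.4% had a higher mean. With 3 and 4 genes listed, the directions are no result about this list. The listed genes amount to 0.558% of all annotated symbols on day 0 and 0.231% on day 7. How many of these symbols were expressed or tested is not known here.

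Markers of other cells were also listed on day 0, some lower and some higher in Efhd2f/f Vil1cre/+ IECs. Their part in the results was not tested. The listed genes of day 0 amount to 0.558% of the annotated gene symbols, and 68% of them had a lower and 32% a higher mean in Efhd2f/f Vil1cre/+ IECs, the shares against which the counts below are to be read. How many symbols were expressed or tested is not known here. The share listed among those would be higher than 0.558%, so a list above it is not shown to be enriched. Of 32 genes of small intestinal absorptive cells, 6 were listed, all lower in Efhd2f/f Vil1cre/+ IECs, with a summed level of 118 and 218 normalized counts in libraries 51 and 53 and of 1173 and 1155 in libraries 50 and 52. Those with the highest means were Enpep, Anpep and Mme. The mean of Mme rests on library 50: it was at 0.0016 and 0.937 normalized counts in libraries 51 and 53 and at 255 and 1.83 in libraries 50 and 52. The regional regulators Hoxb13 and Hoxa13, which mark the posterior gut, were listed as higher (2 of 21), with a sum of 923 and 855 against 284 and 443. Of 24 enteroendocrine genes 6 were listed, all lower (4679 to 5833 against 9896 to 13163), of 16 T and NK cell genes 6, all lower (1077 to 1277 against 1991 to 3250), and of 12 B and plasma cell genes 2, both lower (15.2 to 17.7 against 72.3 to 141). Of 14 heat-shock protein genes 10 were listed, all higher (59990 to 74017 against 16233 to 16960). None of 14 macrophage genes (Lyz2 among them), 14 neutrophil genes, 13 goblet and deep crypt secretory genes or 10 crypt base stem cell genes was listed on day 0 under the symbols searched. However, Ccn3 of the secretory list was listed on day 0 under its older symbol Nov. Its log2 difference was 1.33, higher in Efhd2f/f Vil1cre/+ IECs.

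On day 7, beside Defa24, 9 of 14 neutrophil genes were listed, all higher in Efhd2f/f Vil1cre/+ IECs, with a summed level of 20931 and 65803 normalized counts in libraries 65 and 71 and of 4111 and 6937 in libraries 67 and 68. Of all genes listed on day 7, which amount to 0.231% of the annotated symbols, 91.4% had a higher mean, so a list with all members higher does not stand apart in direction. The share of 0.231% has the same limit as that of day 0. Their part in the Defa24 values was not tested. Of the macrophage list Cd14 was listed, and of the absorptive list Clec2h, both higher. No gene of the other lists was.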

How the data were processed

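RNA of colonic IECs from 8 libraries was analysed. Per the labels, the authors' processing notes name CASAVA 1.8, fastp, HISAT2 2.0.5, featureCounts 1.5.0-p3, DESeq2 1.20.0 and GRCm38, and libraries were made with the NEBNext Ultra kit. The deposited signal is a normalized count per gene and library, scaled by the authors within each day's table. Its step differs from gene to gene and some zeros are stored as tiny positive numbers, which division by 1 factor per library, as DESeq2 usually does, would not give. The scaling method is thus not settled, a ratio of 2 genes within a library may still depend on it, and a listed 0 may not be a count of 0. Whole reads were not recovered, and a depth, interval or floor could not be given. The tables hold only genes past the study's thresholds, and also the authors' fold changes and p-values, which were not used. Groups came from the sample titles, and columns carry library numbers that are not replicate numbers. Values under 1e-06 were set to 0 (25 on day 0, 14 on day 7).

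Genotypes were compared within each day on log2(value + 1) by limma 3.58.1 in R 4.3.3 over all listed genes. This scale understates differences of low genes. The log2 differences and standard errors of the 3 genes are printed without p-values, since they were selected on this contrast; 2 libraries against 2 could not give a two-sided exact permutation p below 0.333. On simulated data (2000 genes, 200 changed 4-fold), 186 were recovered at day 0 levels and 196 at day 7 levels, with 8 and 12 false calls. There, most genes were unchanged and all had the same fixed noise setting, whereas every listed gene was selected as changed. The simulation thus checks that the code runs as intended and does not give the error rate for the listed genes. Levels between genes were compared per kilobase of the deposited gene length. Transcripts were taken from GENCODE M21 (GRCm38), whose coordinates equal those of the tables for the 3 genes, and promoters from RefSeq. They were compared with Biopython 1.88, and windows were matched on both strands. Named are the 3 genes, Efhd2, listed genes of the Paneth list, the 3 nearest profiles per gene and day, listed genes within 1 Mb, and at most 3 genes of each other list. The genes, lists and rules were chosen with earlier results of these data known. Python 3.11.15 with pandas 2.3.3, numpy 2.4.6 and matplotlib 3.10.9 was used. Alternatives were pseudocounts of 0.1 and 10, one common total of the listed genes for every library, only genes with a mean of 50 or more, and each library left out in turn.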

Additional observations from a re-analysis of the deposited data

How the results depend on the processing

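Under the planned settings no log2 difference of the 3 genes changed sign, although the one of Defa24 on day 0 became 0 without library 52. When single libraries were left out, the difference ranged from -3.44 to -1.41 for Lyz1, from 0.50 to 2.56 for Mptx2, from -6.46 to 0 for Defa24 on day 0 and from -5.36 to -2.18 for Defa24 on day 7. The fitted difference of Defa24 depends on the pseudocount and the scaling, since its Efhd2f/f Vil1cre/+ libraries are listed at 0: on day 7 it was -3.77, with pseudocounts of 0.1 and 10 it was -6.91 and -1.38, and on day 0 the values were -3.23, -4.88 and -1.64. With one common total of the listed genes for every library it was -5.35 on day 7 and -3.40 on day 0, with Lyz1 at -2.98 and Mptx2 at 0.92. The totals of the listed genes were higher in Efhd2f/f Vil1cre/+ libraries on both days. Since the genes were selected on this contrast, a common total also shifts the selected differences. Lyz1 was at -2.66 and -1.42 with these pseudocounts, and Mptx2 at 1.53 and 1.52. Lyz1 and Defa24 have means below 50 and gave no value under that filter. Over all listed genes, limma with Benjamini-Hochberg adjustment called 287 of 309 on day 0 and 109 of 128 on day 7 (adjusted p under 0.05, log2 difference beyond 1). The listed genes had already been selected on this same contrast. High counts of calls therefore follow from how the tables were made and are no independent result. On day 7 equal sums over the listed genes left 12 calls and a mean of at least 50 left 71. With a library left out, the calls ranged from 0 to 237 on day 0 (111 to 248 at an unadjusted p under 0.05). On day 7 they were 0 each time (39 to 85 at an unadjusted p under 0.05); the lone library left in a genotype is assumed to vary like the others, and fewer libraries entered each fit. No other tool was run, because the tables hold no counts. No paired analysis was possible because the columns carry no replicate numbers of the labels. The depth of the libraries is unknown, so a listed 0 does not show that a transcript was absent.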
